A study of Saccharomyces cerevisiae with 4 samples.

Results

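The genes described here are 32 Saccharomyces cerevisiae genes of mating and of haploid cells, taken by name from the deposited gene lists and read in cells that were passing through meiosis. They are 32 of 6615 nuclear genes for which reads could be recovered in all 4 libraries (6682 rows were deposited). They fall into 5 groups by role: 6 a-specific genes, 4 alpha-specific genes, 13 haploid-specific genes, 5 genes of agglutination and cell fusion, and 4 protein kinases that the mating pathway shares with other pathways. The study sequenced messenger RNA of the strains ndt80pch2, which lacks NDT80 and PCH2, and ndt80, which lacks NDT80, with 2 samples of each. Both strains are SK1, a background that sporulates efficiently, and both were sampled 4 h after transfer to 0.3% potassium acetate at 30 °C. Ndt80 is the transcription factor that takes cells out of meiotic prophase, and its deletion, which holds cells there, is shared by all 4 samples. Pch2 is an AAA+ ATPase of meiotic chromosomes, and the comparison asks which transcripts differ when it is also absent. The labels name no mating type and no allele at HO, and do not tell whether separate cultures lie behind the samples of 1 strain. The spread that the p-values below rest on may therefore be no more than technical.

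As background, budding yeast has 2 haploid mating types, a and alpha, and the diploids that enter meiosis carry both kinds of mating type information. In alpha cells the alpha2 repressor with Mcm1 shuts off the a-specific genes, and alpha1 switches on the alpha-specific genes. In a/alpha diploids the a1-alpha2 heterodimer shuts off the haploid-specific genes and the gene for alpha1, while alpha2 with Mcm1 still shuts off the a-specific genes. The products of these genes make a pheromone pathway in which a receptor, a heterotrimeric G protein and a kinase cascade on the scaffold Ste5 lead to the transcription factor Ste12. Several of the kinases also serve filamentous growth and the response to high osmolarity.

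The sequences upstream of the a-specific genes carry the first of these controls, and are shown because all 6 of them hold the same arrangement of letters. It was searched as TGT, a gap of 5 or 6 bases, CC, a gap of 6 bases, GG, a gap of 5 or 6 bases and ACA, on both strands of the 500 bases before each start codon. These letters are those of the alpha2-Mcm1 operator, with alpha2 half-sites at the ends and the Mcm1 site in the middle. The spacing was settled with these promoters in view, so the match of the 6 is a description. Each is written 5′ to 3′ from the R64 reference, which is not the SK1 genome, with the fixed letters in capitals:
STE2, chrVI:82353-82379, plus strand: TGTaaatttCCtaattgGGtaagtACA
STE6, chrXI:46479-46505, minus strand: TGTaattaCCtaatagGGaaatttACA
MFA1, chrIV:1384944-1384970, plus strand: TGTaattaCCcaaaaaGGaaatttACA
MFA2, chrXIV:352165-352191, plus strand: TGTatttaCCtattcgGGaaatttACA
BAR1, chrIX:322080-322105, plus strand: TGTaattaCCgtaaaaGGaaattACA
AGA2, chrVII:437104-437129, minus strand: TGTaatttCCgaatacGGtaattACA
Of 5979 promoters of this length, 13 held the arrangement, or 0.217%. The 6 a-specific genes are among the 13, and none of the other 26 members is. The remaining 7 promoters belong to APL3, GYP8, HNT2, HSF1, MPS2, PBP2 and SWC5, whose levels ran between 15.5 TPM (GYP8) and 179 TPM (SWC5). The windows of neighbouring genes can overlap, so the 13 promoters need not hold 13 separate sites. TPM here stands for reads divided by coding length and scaled within each library. Its sum over nuclear genes with recovered reads ran from 885582 to 937140 between libraries.

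The letters of the a1-alpha2 operator stood in some of the haploid-specific promoters, and are shown for those that hold them. The form searched was TGT and TACATCA with a gap of 7 bases, and a looser form was TGT and ACATC with a gap of 8 bases, each on both strands of the same 500 bases. The longer form stood in 20 of 5979 promoters, or 0.335%, among them those of HO, RME1 and NEJ1. The looser form stood in 106 promoters, or 1.77%, and in 5 of 13 haploid-specific members, with none in the other groups of members. Its matches in these 5 are shown with TGT and ACATC in capitals, again from R64, and letters and coordinates include the base that follows each match:
GPA1, chrVIII:115256-115272, minus strand: TGTtaaaaagcACATCa
STE5, chrIV:658146-658162, plus strand: TGTtaatttacACATCa
HO, chrIV:48436-48452, minus strand: TGTtattatttACATCa
RME1, chrVII:584279-584295, minus strand: TGTcacagattACATCa
NEJ1, chrXII:675589-675605, plus strand: TGTaaaaaaatACATCa
A second match lies nearby at HO, and at RME1 a second match on the other strand overlaps the one shown. In the other 8 haploid-specific members these letters are not in this window, which says nothing of whether the repressor acts there.

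The pheromone response element, TGAAACA, is the short sequence through which Ste12 acts. It stood, on either strand, in 720 of 5979 promoters, or 12.04%, and in 20 of the 32 members. All 6 a-specific genes held it, as did 2 of 4 alpha-specific, 7 of 13 haploid-specific, 4 of 5 agglutination and fusion genes, and 1 of 4 shared kinases (STE7). The 250 bases before the start codon of FUS1 are shown as the textbook pheromone-induced promoter (R64, chrIII:71553-71802, plus strand), with each TGAAACA in capitals:
FUS1: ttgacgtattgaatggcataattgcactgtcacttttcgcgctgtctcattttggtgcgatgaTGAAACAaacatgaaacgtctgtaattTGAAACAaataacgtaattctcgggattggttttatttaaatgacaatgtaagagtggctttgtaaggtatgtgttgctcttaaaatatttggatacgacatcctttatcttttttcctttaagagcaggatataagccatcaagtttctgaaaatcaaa
The map of motif positions shows that the 2 kinds of operator did not occur together in any member.

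**Figure D1:**
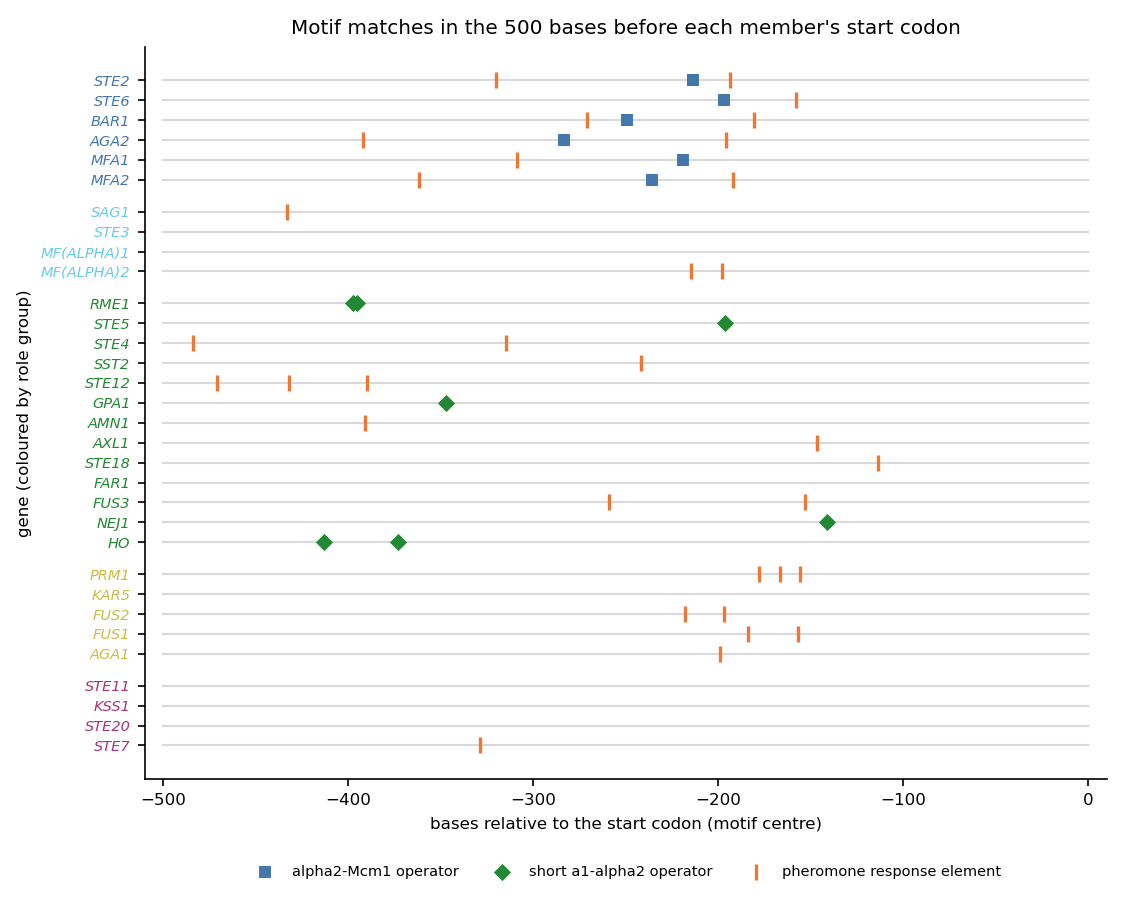
Each line is the 500 bases before the start codon of a member, with 0 at the start codon, and symbols give the centre of each match to the alpha2-Mcm1 operator, the short a1-alpha2 operator and the pheromone response element. Squares appear on the 6 a-specific lines alone, diamonds on 5 of 13 haploid-specific lines, and a single kinase line, STE7, holds a response element.

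The titles alone name the PCH2 deletion, and the libraries matched them at the deleted genes. PCH2 had 0 reads in ndt80pch2 libraries C and D, against 710 and 776 reads (243.6 and 243.3 TPM) in ndt80 libraries A and B. NDT80 had 0 reads in all 4 libraries, although the deposited ndt80 column prints 35.0 for it, a value that mixes 2 genes by row position and was separated before use. Nuclear reads numbered 1713492 and 1714346 in libraries C and D, against 2150159 and 2375240 in A and B, so low values are less precise in ndt80pch2. Markers of meiotic prophase (SPO11, REC8, HOP1, ZIP1, DMC1, IME2 and SPO13) had a median of 570.5 TPM, and markers of dividing cells (CLN1, CLN2, CLB2, CDC20 and SWI5) a median of 7.63 TPM. Summed, the 7 prophase markers had 3552 and 4193 TPM in libraries C and D, against 3701 and 3999 TPM in A and B. DMC1, the meiotic recombinase among them, had 230.8 and 252.4 TPM in C and D, against 476.2 and 490.8 TPM in A and B, with an adjusted p of 0.000588 by limma-voom and of 0.0694 by limma-trend. Relative to the median of all genes tested, DMC1 differed by -0.85 (log2, ndt80pch2 over ndt80). It was the only prophase marker below that median. The others lay above it, from 0.036 (SPO11) to 0.36 (REC8). The summed level of the 5 dividing cell markers was 69.0 and 62.9 TPM in libraries C and D, against 64.5 and 89.2 TPM in A and B, with none of the 5 at 0 in any library, and their part in the levels below was not tested. In such bulk samples, fewer cells of a kind and less RNA per cell cannot be told apart.

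Both kinds of mating type information were read. HMRA1, which holds the a1 gene in the reference genome and would take the reads of a1 from an a/alpha cell, had 71.2 and 57.6 TPM in ndt80pch2 libraries C and D, against 70.2 and 92.1 TPM in ndt80 libraries A and B. MATALPHA2, the alpha2 gene, had 46.2 and 42.7 TPM in C and D, against 37.7 and 62.1 TPM in A and B. MATALPHA1, the alpha1 gene that a1-alpha2 shuts off in diploids, had 5.41 and 0 TPM in C and D, against 6.61 and 6.04 TPM in A and B. Every 50-base window of the MAT alpha genes also occurs at HML, so those reads could be split between the copies and their levels are uncertain. In no member does such a window occur outside the gene itself.

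The genes of haploid cells were low and the shared kinases were not. The 23 a-specific, alpha-specific and haploid-specific members had mean levels over the 4 libraries of 0 to 29.2 TPM, where the median nuclear gene had 43.4 TPM. Their means were under 10 TPM for 17 of 23, against 21.9% of all nuclear genes. The 4 kinases had means of 46.4 to 109.9 TPM, so none lay below the highest of the 23. By rank, the median of the 23 stood above 19.8% of nuclear genes and the median kinase above 56.8%.

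The same contrast was seen in each library and is given as a description, without a test. The median log2(TPM + 1) of the 23 genes minus that of the kinases was -3.03 and -2.91 in ndt80pch2 libraries C and D, against -2.88 and -2.52 in ndt80 libraries A and B. The 23 genes summed to 157.3 and 173.6 TPM in C and D, against 202.0 and 196.9 TPM in A and B. The 4 kinases alone summed to 243.9 and 255.7 TPM in C and D, against 299.3 and 270.0 TPM in A and B. Both sums were lower in each ndt80pch2 library than in each ndt80 library. Of all single genes tested, 42.4% had this order. That share stands beside each member below whose strains did not overlap.

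**Figure D2:**
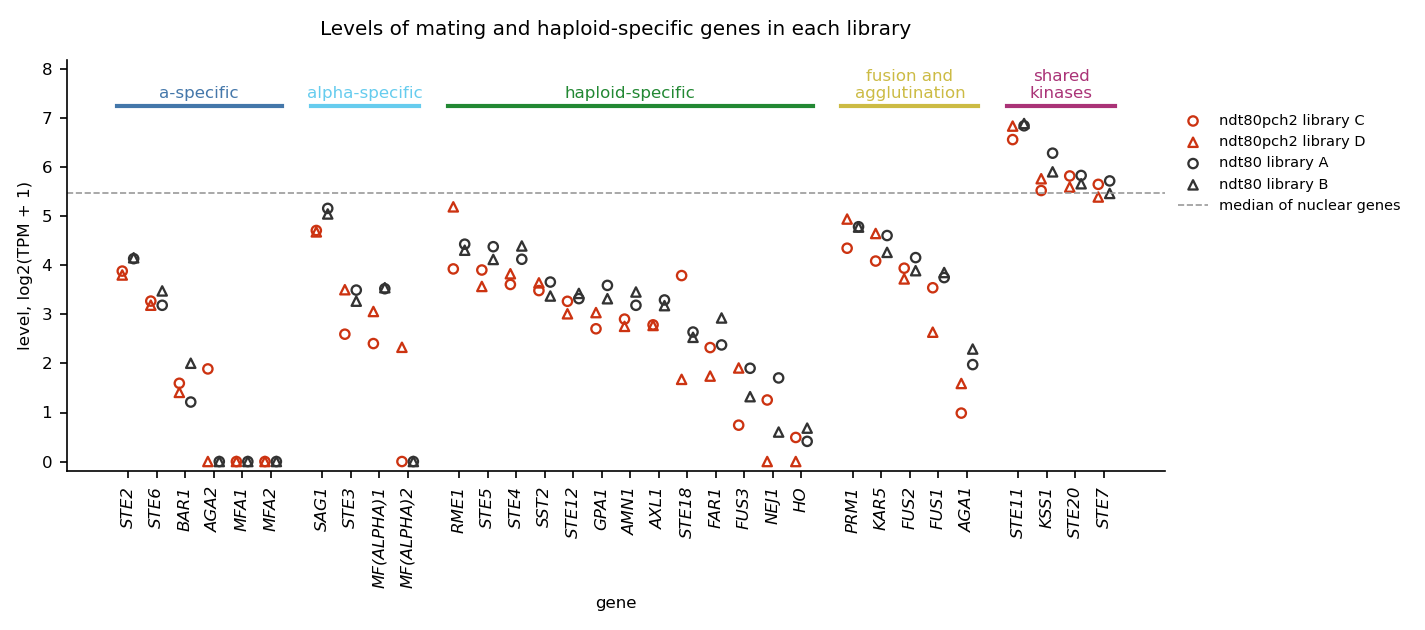
The vertical axis gives the level of each of the 32 members as log2(TPM + 1) in each library, ndt80pch2 libraries C and D in red left of ndt80 libraries A and B in black, and the dashed line is the median nuclear gene, 43.4 TPM. STE11, KSS1 and STE20 lie above the line in every library and STE7 on either side of it, while no gene of the other 4 groups has a mean over 29.2 TPM.

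**Figure D3:**
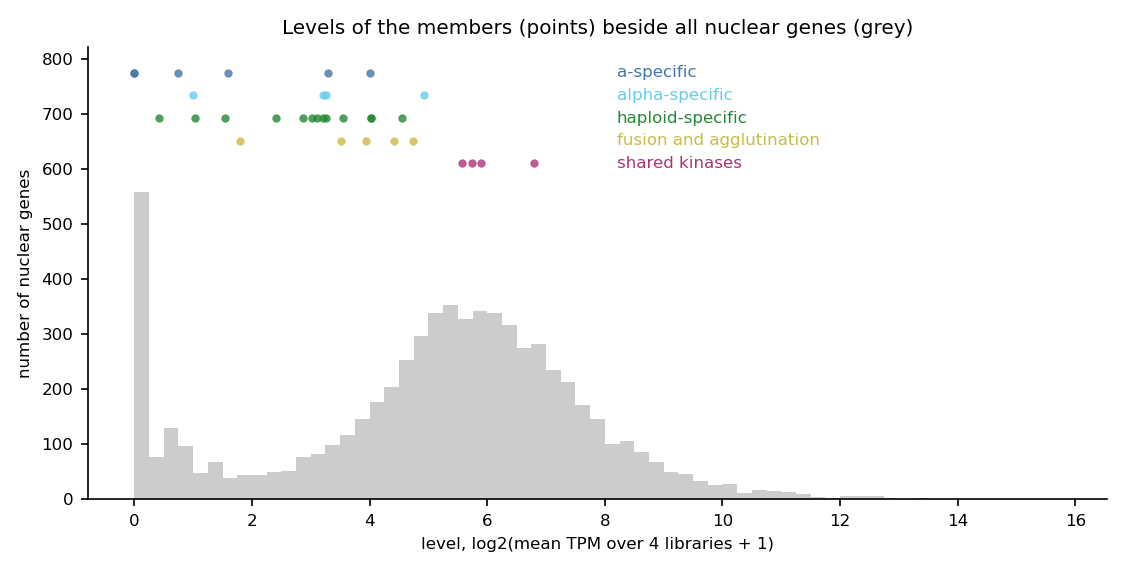
Grey bars count nuclear genes by log2(mean TPM over 4 libraries + 1), and points above them mark the members by group at the same horizontal scale. The 23 genes of haploid cells lie in the left part of the distribution, at 0 to 29.2 TPM, and the kinases at 46.4 to 109.9 TPM, on its middle.

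Among the a-specific genes, STE2 was the highest and the pheromone genes were at 0. STE2 (YFL026W, chromosome VI, 82580 to 83875), the receptor for alpha-factor, had 25 and 23 reads (13.8 and 13.0 TPM) in ndt80pch2 libraries C and D, against 37 and 41 reads (16.6 and 16.8 TPM) in ndt80 libraries A and B. STE6 (YKL209C, chromosome XI, 42423 to 46295), the transporter that exports a-factor, had 8.66 and 8.12 TPM in C and D, against 8.11 and 10.2 TPM in A and B. BAR1, a secreted protease that degrades alpha-factor, had 5 and 4 reads in C and D, against 4 and 10 reads in A and B. Of these genes, STE2 alone had strains that did not overlap. AGA2, the binding subunit of a-agglutinin, had 1 and 0 reads in C and D, against 0 and 0 reads in A and B.

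MFA1 (YDR461W, chromosome IV, 1385176 to 1385286) and MFA2 (YNL145W, chromosome XIV, 352414 to 352530) encode a-factor and had 0 reads in all 4 libraries. Because their coding regions are short, a count of 0 allows much: with 3 reads as the floor, up to 19.3 and 19.8 TPM of MFA1 in libraries C and D, and up to 15.7 and 14.4 TPM in A and B. Such floors cover counting error only. Of 126 other nuclear genes with at most 150 coding bases, 121 also had 0 reads in all 4 libraries, and the highest of them had a mean of 4.77 TPM. The zeros of the a-factor genes therefore cannot be told apart from the zeros of other genes of their length.

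The alpha-specific group held the highest of the 23 genes. SAG1 (YJR004C, chromosome X, 442909 to 444861), the alpha-agglutinin of the cell surface, had 69 and 66 reads (25.2 and 24.7 TPM) in ndt80pch2 libraries C and D, against 117 and 118 reads (34.8 and 32.1 TPM) in ndt80 libraries A and B. STE3, the receptor for a-factor, had 5.05 and 10.3 TPM in C and D, against 10.3 and 8.65 TPM in A and B. SAG1 stood above 38.4% of nuclear genes by its mean, and its strains did not overlap, while those of STE3 did. MF(ALPHA)1 (YPL187W, chromosome XVI, 193648 to 194145), the main alpha-factor precursor, had 3 and 5 reads (4.30 and 7.34 TPM) in C and D, against 9 and 10 reads (10.5 and 10.7 TPM) in A and B. MF(ALPHA)2, the minor precursor, had 0 and 2 reads in C and D, against 0 and 0 reads in A and B. It passed the filter on low values through the 2 reads of library D. Its fold is therefore not printed, though it enters the counts, a group median and the figure of fold changes. Pheromone reads were thus few in every library, and of the 4 pheromone genes MF(ALPHA)1 alone had more than 3 reads in any of them.

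The haploid-specific group holds the G protein and the proteins next to it. GPA1, the alpha subunit, had 5.53 and 7.21 TPM in ndt80pch2 libraries C and D, against 11.1 and 8.99 TPM in ndt80 libraries A and B. STE4, the beta subunit, had 11.2 and 13.2 TPM in C and D, against 16.5 and 20.1 TPM in A and B. STE18, the gamma subunit, had 6 and 1 reads in C and D, against 3 and 3 reads in A and B. GPA1 and STE4 were lower in each ndt80pch2 library than in each ndt80 library, and the few reads of STE18 overlapped. SST2, which speeds the return of Gpa1 to its inactive state, had 10.2 and 11.5 TPM in C and D, against 11.6 and 9.38 TPM in A and B. STE5, the scaffold of the cascade, had 54 and 41 reads (14.0 and 10.9 TPM) in C and D, against 94 and 85 reads (19.8 and 16.4 TPM) in A and B. The scaffold was lower in both ndt80pch2 libraries, whereas SST2 overlapped.

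Of the nuclear end of the pathway, STE12 had 8.63 and 7.07 TPM in ndt80pch2 libraries C and D, against 9.002 and 9.77 TPM in ndt80 libraries A and B. FUS3, the MAP kinase of the mating response, had 1 and 4 reads in C and D, against 5 and 3 reads in A and B. FAR1, which halts the cell cycle in G1 and orients polarity toward the partner, had 14 and 8 reads in C and D, against 18 and 31 reads in A and B. STE12 and FAR1 did not overlap between strains and FUS3 did. Within the MAP kinase pair, FUS3 had means of 1.71 ± 1.47 TPM in ndt80pch2 and 2.12 ± 0.874 TPM in ndt80 (SD, n = 2 each). KSS1, the MAP kinase tied to filamentous growth, had means of 49.3 ± 5.91 TPM in ndt80pch2 and 68.1 ± 12.8 TPM in ndt80 (SD, n = 2 each).

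The remaining haploid-specific genes serve other traits of haploid cells. RME1 (YGR044C, chromosome VII, 582990 to 583892), a repressor of the meiotic inducer gene IME1, was the highest of the 13, with 18 and 44 reads (14.2 and 35.6 TPM) in ndt80pch2 libraries C and D, against 32 and 32 reads (20.6 and 18.8 TPM) in ndt80 libraries A and B. The 2 ndt80pch2 libraries thus lay on either side of both ndt80 libraries for RME1. IME1 itself, the master inducer of meiosis, had 498.9 and 600.7 TPM in C and D, against 539.0 and 587.0 TPM in A and B. AXL1, a protease of a-factor maturation that also marks the axial bud site, had 5.90 and 5.84 TPM in C and D, against 8.82 and 8.06 TPM in A and B. AMN1, an inhibitor of mitotic exit, had 6.49 and 5.76 TPM in C and D, against 8.11 and 9.99 TPM in A and B. Neither AXL1 nor AMN1 overlapped between strains. NEJ1, a factor of non-homologous end joining, had 2 and 0 reads in C and D, against 4 and 1 reads in A and B. HO (YDL227C, chromosome IV, 46271 to 48031), the endonuclease of mating type switching, was the lowest, with 1 and 0 reads in C and D, against 1 and 2 reads in A and B. The sources used here do not give how the strand of the reads was treated, so reads of a gene and of an antisense RNA cannot be told apart at any of these genes.

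The genes that pheromone induces for agglutination and fusion were low too, with means of 2.46 to 25.6 TPM. PRM1 (YNL279W, chromosome XIV, 110917 to 112902), which acts in plasma membrane fusion, was the highest, with 54 and 81 reads (19.4 and 29.8 TPM) in ndt80pch2 libraries C and D, against 91 and 99 reads (26.6 and 26.5 TPM) in ndt80 libraries A and B. KAR5, needed for nuclear fusion, had 16.0 and 24.1 TPM in C and D, against 23.4 and 18.2 TPM in A and B. FUS2, a fusion factor, had 14.4 and 12.2 TPM in C and D, against 16.9 and 13.8 TPM in A and B. The strains overlapped at all of these genes. FUS1 (YCL027W, chromosome III, 71803 to 73341), a membrane protein of the mating projection, had 23 and 11 reads (10.7 and 5.22 TPM) in C and D, against 33 and 39 reads (12.5 and 13.5 TPM) in A and B. AGA1 (YNR044W, chromosome XIV, 703699 to 705876), the anchorage subunit of a-agglutinin, was the lowest of the group, with 3 and 6 reads (0.983 and 2.01 TPM) in C and D, against 11 and 16 reads (2.94 and 3.90 TPM) in A and B. FUS1 and AGA1 were lower in both ndt80pch2 libraries than in either ndt80 library.

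The shared kinases had the most reads of the members. STE11 (YLR362W, chromosome XII, 849866 to 852019), the MAP kinase kinase kinase, had 283 and 335 reads (93.8 and 113.7 TPM) in ndt80pch2 libraries C and D, against 423 and 478 reads (114.2 and 118.0 TPM) in ndt80 libraries A and B, and stood above 75.5% of nuclear genes. STE20, a p21-activated kinase that starts the cascade, had 55.7 and 47.4 TPM in C and D, against 56.1 and 49.8 TPM in A and B. STE7 (YDL159W, chromosome IV, 172481 to 174028), the MAP kinase kinase and the lowest of the 4, had 107 and 87 reads (49.3 and 41.1 TPM) in C and D, against 138 and 126 reads (51.8 and 43.3 TPM) in A and B. STE20 and STE7 overlapped between strains, and STE11 did not. KSS1 (YGR040W, chromosome VII, 575398 to 576504) had 70 and 81 reads (45.1 and 53.5 TPM) in C and D, against 147 and 123 reads (77.2 and 59.1 TPM) in A and B, with no overlap.

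No member passed the test between the strains. The test was limma-trend on log2(TPM + 1) over 5752 genes with a mean of at least 1 TPM, with Benjamini-Hochberg adjustment, and it covered 28 members. MFA1, MFA2, AGA2 and HO were under the filter. With an adjusted p under 0.05, 0 of 28 members were called, where 0.0174% of genes were (1 gene, PCH2), and the lowest adjusted p of a member was 0.304 by limma-trend. limma-voom on the recovered reads also called 0 of 28, where it called 0.452% of genes, with a lowest adjusted p of 0.297. At an unadjusted p under 0.05, limma-trend had 2 members, both lower in ndt80pch2, or 7.14% of those tested against 13.1% of all genes, and limma-voom had 3 (10.7%, all lower), against 15% of all genes in either direction, 11.7% lower and 3.32% higher. In the other direction limma-trend had 0 members and 2.69% of all genes. On this scale the median gene differed by -0.15 (log2, ndt80pch2 over ndt80), and each p refers to the change with that shift still in it. The 2 members of limma-trend were KSS1, with a log2 difference of -0.45 ± 0.17 (SE) and an unadjusted limma-trend p of 0.0396, and SAG1, with -0.41 ± 0.16 (SE) and an unadjusted limma-trend p of 0.0458. After subtraction of the shift they differed by -0.30 (95% interval -0.73 to 0.12) and -0.26 (-0.66 to 0.14). The difference of KSS1 was -0.12 without library A, -0.49 without library B and -0.18 without library C. Under median-of-ratios factors, which bring the median gene to -0.0052, 0 of 28 members and 10.3% of all genes had an unadjusted limma-trend p under 0.05. The log2(TPM + 1) scale understates the change of low genes.

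Many members lay lower in ndt80pch2 without passing a test, and so did many other genes. The strains did not overlap, with both ndt80pch2 libraries below both ndt80 libraries, for 14 of 28 members (50%), where the share over all genes tested was 42.4%. The opposite order, both ndt80pch2 libraries above, was found in 0 of 28 members and in 9.39% of all genes. Before subtraction, 24 of 28 members (85.7%) and 73.8% of all genes had a negative log2 difference. Relative to the median gene, 18 members were negative and 10 positive, with a median of -0.15. By group, that median was 0.04 for 3 a-specific genes tested, -0.26 for 3 alpha-specific genes (MF(ALPHA)2 left out), -0.33 for 12 haploid-specific, -0.04 for 5 agglutination and fusion genes, and 0.03 for the 4 kinases. These medians moved with single libraries by unlike amounts. With a library left out, the a-specific median ran from -0.17 (without A) to 0.19 (without B). The haploid-specific median stayed negative, from -0.29 (without C) to -0.19 (without A). With all libraries but only genes with a mean of at least 10 TPM, it moved to -0.084, on 4 genes. The median of the agglutination and fusion genes ran from -0.22 (without D) to 0.012 (without A). That of the kinases stayed near its value, from -0.022 (without C) to 0.072 (without A). With MF(ALPHA)2 included, the alpha-specific median was -0.22 and ran from -0.46 (without D) to 0.0034 (without C). MF(ALPHA)2 is counted among the 10 positive members. NEJ1 is counted among the 18 negative members and in the haploid-specific median. Each passed the filter only through the strain where it was higher. The shift of all genes and the lower depth of the ndt80pch2 libraries move with these counts, and their part was not tested.

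The widest differences among the members were those of genes with few reads. Relative to the median gene, AGA1 differed by -0.70 ± 0.59 (SE; 95% interval -2.13 to 0.73; limma-trend adjusted p = 0.472), on 3 to 16 reads per library, and by -0.39 without library C. MF(ALPHA)1 differed by -0.65 ± 0.36 (SE; 95% interval -1.53 to 0.22; limma-trend adjusted p = 0.330), on 3 to 10 reads per library, and by -0.32 without library C and -0.999 without library D. FUS1 differed by -0.56 ± 0.38 (SE; 95% interval -1.48 to 0.35; limma-trend adjusted p = 0.370), and by -1.01 without library C and -0.13 without library D. The intervals of the kinases were narrow by comparison: that of STE11 ran from -0.32 to 0.28 and that of STE20 from -0.25 to 0.47. All these intervals rest on 2 libraries per strain, whose spread may be no more than technical. They may therefore be too narrow and do not bound the difference between the strains. NEJ1, with 0 to 4 reads per library, had means of 0.694 TPM in ndt80pch2 and 1.39 TPM in ndt80. It passed the filter only through ndt80, so its difference is undetermined at this depth. Between libraries of the same strain, the median member differed by 0.30 (log2) in ndt80pch2 and by 0.26 in ndt80, more than the median gene did (0.20 and 0.13).

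**Figure D4:**
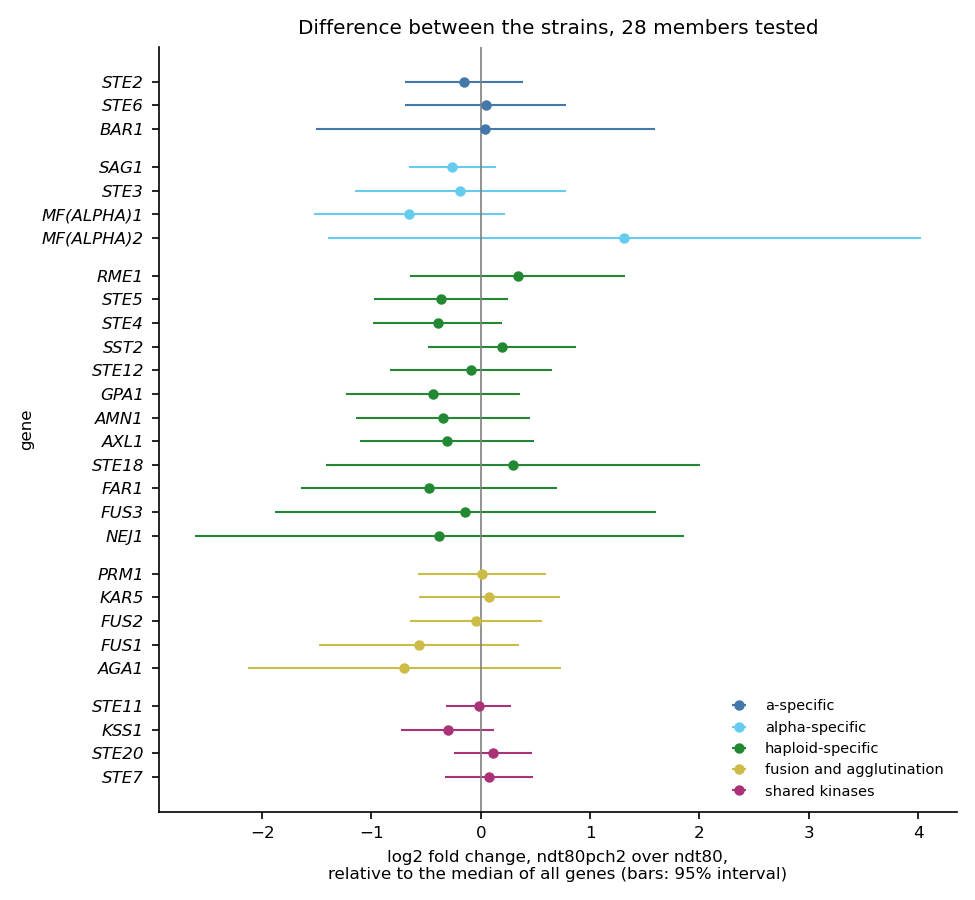
Points are log2 fold changes of ndt80pch2 over ndt80 on the log2(TPM + 1) scale for the 28 members tested, relative to the median of all genes tested, and bars are 95% intervals from limma. Every interval spans 0, the narrowest are those of the kinases and of SAG1, and the point of MF(ALPHA)2 rests on 2 reads of library D. NEJ1 passed the filter only through ndt80.

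Beyond the members, 40 further genes of the pathway, of pheromone maturation and of mating type control were read. Their median level was 50.8 TPM, and 28 of 40 lay above the highest of the 23 genes of haploid cells. All 40 were tested, 0 were called by limma-trend or limma-voom, and 4 (10%) had an unadjusted limma-trend p under 0.05, all lower in ndt80pch2, against 13.1% of all genes. The strains did not overlap for 16 of 40 in the lower direction (40%, against 42.4% of all genes) and for 3 of 40 in the higher (7.5%, against 9.39%). The lowest p was that of HMLALPHA1, the silent copy of the alpha1 gene, with 2 and 2 reads in ndt80pch2 libraries C and D, against 11 and 9 reads in ndt80 libraries A and B (limma-trend adjusted p = 0.253, unadjusted p = 0.00504). Its sequence is identical to MATALPHA1 in every 50-base window, so its share of the reads is uncertain. CIK1, the partner of the kinesin Kar3, had 79.6 and 76.6 TPM in C and D, against 99.0 and 100.1 TPM in A and B (limma-trend adjusted p = 0.286). On the higher side, STE50, the adaptor of Ste11, had 53.5 and 52.7 TPM in C and D, against 42.5 and 48.0 TPM in A and B (limma-trend adjusted p = 0.415). KAR4, a transcription factor of mating and of meiosis, had 222.3 and 260.3 TPM in C and D, against 216.3 and 218.3 TPM in A and B (limma-trend adjusted p = 0.485). The 4 genes were picked by their p and are among those that did not overlap. Relative to the median gene, the 40 had a median log2 difference of 0.01.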

How the data were processed

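Messenger RNA of 4 samples was sequenced with paired ends. The tools named, per the submitters' processing notes and without role or order, are DESeq2 2.11.40.6, HTSeq 0.9.1, HISAT2 2.1.0 and FastQC, and the build is R64 (sacCer3). The deposited table of each strain holds a single unnamed column of values. They behave as TPM averaged over 2 libraries, but the sources used here do not give how they were made.

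Each deposited TPM-like value times coding length was solved as whole reads of 2 libraries, within 0.55 of the last printed digit, for 99.8% of ndt80pch2 values above 0. In the ndt80 column, from row 94, the first of 18 mitochondrial rows, 99.6% of values were solved when the second library was read from a list without those rows, against 9.17% in the printed order. On that reading, which rests on the values, 6553 nuclear rows mix 2 genes. They were separated, and 49 of 6664 nuclear genes without a solution were left out. No value carries a replicate number, so the libraries are called C and D (ndt80pch2) and A and B (ndt80). Mitochondrial reads were listed for library A alone. The solving and the fits were also run on simulated data, in which the changed genes lay above the level of most members. The outcome is not given here.

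Genes with a mean of at least 1 TPM (5752) were tested with limma-trend on log2(TPM + 1), and with limma-voom as an alternative (limma 3.58.1, R 4.3.3). Calls were made at an adjusted p under 0.05. The members, the lists of pathway genes and markers and the motif letters were chosen with earlier results of these data known, and 1 planned marker is not reported here. Full values were planned for called members, for the 3 with the widest fold changes and for the highest and lowest of each group, and further members are given beside them. The R64 annotation held 6006 of the gene IDs, 5998 with equal coordinates, all 32 members among them. Coordinates are 1-based. Sequences were read from the R64 reference of RefSeq. Other computations ran in Python 3.11.15 (matplotlib 3.10.9, pandas 2.3.3, numpy 2.4.6).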

Additional observations from a re-analysis of the deposited data

How the results depend on the processing

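No paired analysis was possible because the deposited values carry no replicate number, so the planned fit with a replicate block was not run. Members called numbered 0 under a pseudocount of 0.1, no filter, a mean of at least 10 TPM, median-of-ratios factors, limma-voom and every library left out. Genes called numbered 5 with a mean of at least 10 TPM, 26 by limma-voom, and 0 to 1 with a library left out, with 0 without library A and 0 without library B. A lone library was assumed to vary like the other strain. The median log2 fold change of the members, -0.15 relative to all genes, was -0.031 with a mean of at least 10 TPM (14 members tested), -0.21 to -0.11 with a library left out, -0.15 without MF(ALPHA)2 (chosen after seeing the data), and -1.59 with the deposited columns taken row by row, where rows mix genes. The median log2 level of the 23 genes of haploid cells minus that of the kinases, -2.83, was -3.14 in reads without division by coding length, -2.34 row by row, and -2.94 to -2.77 with a library left out.

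Of 238 fitted alternatives of single members, 21 changed sign, all of uncalled members, and 9 of 28 did so row by row. BAR1 was -0.0059 under median-of-ratios factors. With a library left out, the log2 fold change ran from -0.36 to 0.44 for BAR1, -0.66 to 0.27 for STE3, -0.76 to 1.34 for STE18, -0.74 to 0.45 for FUS3, -0.17 to 0.12 for STE11, -0.048 to 0.20 for STE7, -0.21 to 0.022 for STE12, -0.31 to 0.98 for RME1, -0.999 to 0.23 for NEJ1, -0.17 to 0.086 for FUS2, -0.30 to 0.31 for PRM1, -0.22 to 0.37 for KAR5 and -0.10 to 0.19 for STE6. Where no value or construction above shows it, the cause was not tested. Depth limits the members with few reads: AGA2, HO, NEJ1, FUS3, STE18 and MF(ALPHA)2 had at most 6 reads in any library.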
